A study of Mus musculus with 405 samples.

Results

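The 6 genes described here, Cyp1b1, Tiparp, Cyp1a1, Ahrr, Ahr and Arnt, belong to the aryl hydrocarbon receptor (AhR) pathway and were chosen by symbol from 13304 genes of a chemical screen and 23893 genes of a count table for the fungicide pyraclostrobin. All 6 were present in both tables. The question put to the data was which pesticides raise Cyp1b1 and Tiparp. Primary cortical neuron cultures from day 15 embryos of C57BL/6J females and CAST/EiJ males were exposed on day 7 in vitro to a single chemical, at a dose below overt toxicity, or to vehicle (DMSO), and polyadenylated RNA was sequenced after 24 h. The screen held 49 vehicle libraries and 344 libraries of 297 chemicals, of which 282 had 1 library, 257 were used at 10 µM and the remaining 40 at 0.01 to 1 µM. The count table held 4 libraries of pyraclostrobin at 0.1 µM and 4 of vehicle. Cultures were enriched for neurons but also held glia, they carried both parental genomes, and an antimitotic was given on day 3 in vitro. In bulk RNA, more cells of a type and more RNA per cell cannot be told apart.

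AhR is a ligand-activated transcription factor of the bHLH-PAS family that waits in the cytosol in a complex with Hsp90 chaperones. Planar aromatic pollutants such as dioxins bind it, upon which it enters the nucleus, pairs with Arnt and binds the xenobiotic response element, whose core is GCGTG. Cyp1a1 and Cyp1b1 encode cytochrome P450 monooxygenases that oxidise the ligands, Tiparp encodes a mono-ADP-ribosyltransferase that is induced by AhR and restrains it, and Ahrr encodes a repressor that competes for Arnt. In brain, Cyp1b1 is best known from cells of the vessel wall.

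In mm9, the build of the deposited values, Cyp1b1 lies on chromosome 17 (80106234 to 80114401, minus strand), Tiparp on chromosome 3 (65332332 to 65359067, plus strand) and Cyp1a1 on chromosome 9 (57545420 to 57551629, plus strand). Ahrr lies on chromosome 13 (74348566 to 74429779, minus strand), Ahr on chromosome 12 (36182646 to 36219710, minus strand) and Arnt on chromosome 3 (95238310 to 95301162, plus strand). RefSeq promoter windows of 300 bases, from 250 before to 50 after the start of transcription on GRCm38.p6, were at hand for 5 of the 6 genes and not for Ahr. The 4 windows below are those of the genes that AhR is known to induce, written 5′ to 3′ on the strand of the gene, and capitals mark GCGTG or, for the opposite strand, CACGC. They are shown because Cyp1b1 and Tiparp are the genes whose counts moved in what follows, while Cyp1a1 and Ahrr are the further textbook targets.

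Cyp1b1 (chr17:79715012-79715311, minus strand): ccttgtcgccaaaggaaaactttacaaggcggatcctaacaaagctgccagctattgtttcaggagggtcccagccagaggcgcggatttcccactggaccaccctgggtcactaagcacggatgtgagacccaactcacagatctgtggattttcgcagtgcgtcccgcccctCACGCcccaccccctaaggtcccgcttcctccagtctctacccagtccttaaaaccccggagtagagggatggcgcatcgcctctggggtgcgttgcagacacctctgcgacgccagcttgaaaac
Tiparp (chr3:65528197-65528496, plus strand): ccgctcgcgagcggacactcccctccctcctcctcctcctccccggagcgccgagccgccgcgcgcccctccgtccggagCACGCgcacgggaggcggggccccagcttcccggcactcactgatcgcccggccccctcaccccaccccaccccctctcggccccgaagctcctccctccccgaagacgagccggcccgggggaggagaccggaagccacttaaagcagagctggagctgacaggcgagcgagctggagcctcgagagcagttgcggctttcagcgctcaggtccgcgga
Cyp1a1 (chr9:57697363-57697662, plus strand): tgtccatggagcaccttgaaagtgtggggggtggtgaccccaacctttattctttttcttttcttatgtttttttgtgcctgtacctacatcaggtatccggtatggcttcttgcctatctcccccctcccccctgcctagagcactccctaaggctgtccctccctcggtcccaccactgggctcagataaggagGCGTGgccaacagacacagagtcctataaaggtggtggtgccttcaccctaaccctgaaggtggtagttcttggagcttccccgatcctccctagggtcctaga
Ahrr (chr13:74292282-74292581, minus strand): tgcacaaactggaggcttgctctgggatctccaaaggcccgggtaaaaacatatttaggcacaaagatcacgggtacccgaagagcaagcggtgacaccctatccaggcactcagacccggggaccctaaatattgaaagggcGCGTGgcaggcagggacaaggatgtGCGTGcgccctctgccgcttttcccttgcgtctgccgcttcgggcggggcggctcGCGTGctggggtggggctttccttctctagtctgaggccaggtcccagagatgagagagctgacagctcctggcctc

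Each of the 5 windows held the 5-base core on at least 1 strand, as did 32.4% of the 32851 windows of 27025 genes. Cyp1b1, Tiparp, Cyp1a1 and Arnt had 1 match each, and Ahrr had 3, a number that 3.91% of windows reached. The longer form TNGCGTG, searched on both strands, occurred once, in Ahrr, and in 5.07% of all windows. These are matches of letters and not sites of binding.

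Cyp1b1 and Tiparp were both raised by pyraclostrobin in the count table. Library totals were 2409623 to 2550437 for pyraclostrobin and 2778615 to 7833440 for vehicle. Replicates are named 1 to 4 here in the order of the numbers in the column names, and replicate 1 of pyraclostrobin was also the single pyraclostrobin library of the screen.

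Cyp1b1 had 58.9, 65, 101 and 59.2 CPM (counts scaled to library size with TMM factors) in the 4 pyraclostrobin libraries, against 11.4, 17.5, 13.6 and 15.9 in vehicle. Every treated library lay above every vehicle library, but the share of all tested genes with groups apart in this way was not computed. The means were 71.1 ± 20.3 (SD, n = 4) and 14.6 ± 2.67 CPM, a 4.86-fold difference (log2 fold change 2.28, SE 0.22, adjusted p = 3.91e-05, by the quasi-likelihood test of edgeR, Benjamini-Hochberg adjusted, with 12324 genes tested).

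Tiparp had 64.8, 56, 85.6 and 64.8 CPM with pyraclostrobin and 40.7, 44.8, 36 and 37.2 CPM with vehicle. Its groups did not overlap either, with the same limit that the share of all tested genes with groups apart was not computed. The change was smaller than that of Cyp1b1, 1.72-fold (log2 fold change 0.78, SE 0.16, adjusted p = 0.00283 by edgeR). At the threshold of 0.01 this call was lost without pyraclostrobin replicate 3 (log2 fold change 0.61, adjusted p = 0.0129), vehicle replicate 3 (0.73, adjusted p = 0.0137) or vehicle replicate 4 (0.75, adjusted p = 0.0121).

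Of the 4 members that passed the filter of at least 10 counts in at least 4 libraries, these 2 were called higher and none was called lower, beside 12.1% of all tested genes called higher and 9.22% called lower. The receptor itself, Ahr, gave 11, 15.8, 11.4 and 12.2 CPM with pyraclostrobin and 15.3, 13.6, 17.4 and 16.8 CPM with vehicle. These ranges overlapped (log2 fold change -0.34, SE 0.19, adjusted p = 0.198 by edgeR). Its partner Arnt gave 23.9, 24, 17.1 and 20.1 CPM against 15, 15.6, 17 and 14.1 CPM, with the lowest treated library only just above the highest vehicle library, and did not pass either (log2 fold change 0.47, SE 0.18, adjusted p = 0.0602 by edgeR).

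Cyp1a1, the classical marker of AhR activation, was near the limit of detection. Its counts were 1, 1, 6 and 3 with pyraclostrobin and 5, 3, 6 and 4 with vehicle, and it was not tested. Ahrr had 9, 6, 2 and 5 counts with pyraclostrobin and 2, 2, 17 and 20 with vehicle, of which the last 2 libraries were the deeper ones. The order of its CPM values followed no group, with 3.53, 2.25, 0.761 and 1.97 CPM against 0.713, 0.778, 2.29 and 3 CPM. With no filter on low counts edgeR gave log2 fold changes of 0.00 for Cyp1a1 (adjusted p = 0.995) and 0.04 for Ahrr (adjusted p = 0.968). Both genes had few counts, and the direction of a small change cannot be read from them.

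**Figure D1:**
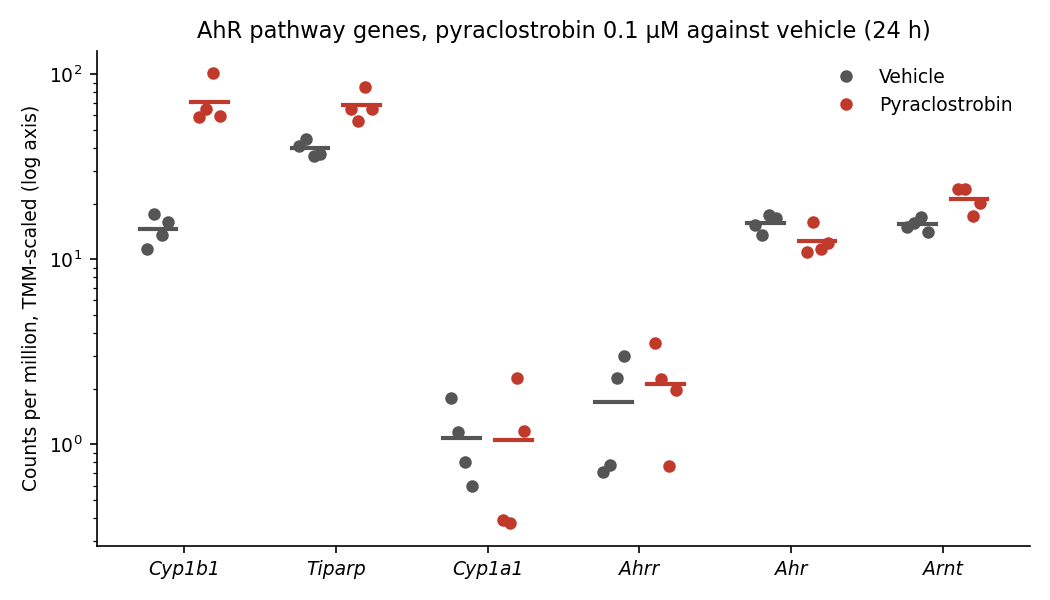
TMM-scaled CPM on a log axis for the 6 AhR pathway genes in 4 vehicle and 4 pyraclostrobin libraries (points), with the mean of each group as a bar. The groups are apart for Cyp1b1 and Tiparp, nearly touch for Arnt and overlap for Cyp1a1, Ahrr and Ahr.

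Per kilobase of exon (RPKM, from library totals and exon lengths of the GENCODE annotation of mm9), Tiparp was the most abundant member in vehicle, with 9.40 ± 0.876 RPKM (SD, n = 4). Cyp1b1 followed with 2.65 ± 0.436 and Ahr with 2.42 ± 0.274 RPKM, and these did not differ beyond their spread (2.12 to 3.11 and 2.04 to 2.67 RPKM). Arnt had 1.82 ± 0.145 RPKM, below every Ahr value. Cyp1a1 with 0.395 ± 0.194 and Ahrr with 0.172 ± 0.115 RPKM came last, with ranges that overlapped (0.216 to 0.66 and 0.0741 to 0.303 RPKM). With pyraclostrobin, Cyp1b1 reached 14.3 ± 4.16 RPKM and Tiparp 17.8 ± 3.41 RPKM, with ranges that overlapped (11.8 to 20.5 and 14.7 to 22.7 RPKM).

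Other genes tied to AhR moved in the same table, in which 12.1% of all tested genes were called higher. Of 15 further genes known as AhR targets in some tissue, 6 were tested, 5 were higher and none was lower (median log2 fold change 1.98, beside 0.00 over all tested genes). They were Ugt1a6a (log2 fold change 2.18, adjusted p = 0.00091) and Ugt1a6b (1.91, adjusted p = 0.00193), which encode glucuronosyltransferases and share exons so that their reads may not be told apart, Nqo1 (2.04, adjusted p = 0.00689), a quinone reductase, Nfe2l2 (2.14, adjusted p = 0.000237), which encodes the oxidative stress factor Nrf2, and the amino acid transporter gene Slc7a5 (0.97, adjusted p = 0.00134), all by edgeR. Nqo1, Ugt1a6a and Slc7a5 are targets of stress factors as well as of AhR. The paper reports Nrf2 target genes among those raised by fenamidone and pyraclostrobin, and the part of each factor was not tested. Hes1, a Notch target, gave 0.37 (adjusted p = 0.43 by edgeR). Cyp1a2, Gsta1, Gsta2 and Scin had 0 counts in all 8 libraries, which allows up to 0.383 CPM in the deepest and 1.25 CPM in the shallowest library (3 counts), covering counting error only.

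None of the 5 genes of the cytosolic complex passed (median -0.12). Hsp90aa1, an Hsp90 chaperone gene, gave -0.33 (adjusted p = 0.0351 by edgeR), and its paralog Hsp90ab1 gave -0.01. Among 9 other bHLH-PAS genes, which encode relatives or alternative partners of AhR and Arnt, 7 were tested, 3 were higher and 1 was lower. Epas1 (log2 fold change 2.52, adjusted p = 0.000102) and Hif1a (0.54, adjusted p = 0.00793) encode hypoxia-inducible factors that also pair with Arnt, Npas3 rose by 1.05 and the interneuron factor Npas1 fell by 1.35 on the log2 scale (adjusted p = 0.00423 for both, edgeR). Arnt2, the neuronal counterpart of Arnt, gave -0.20 (adjusted p = 0.29 by edgeR) from 434 ± 77.8 CPM (SD, n = 4) in vehicle.

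**Figure D2:**
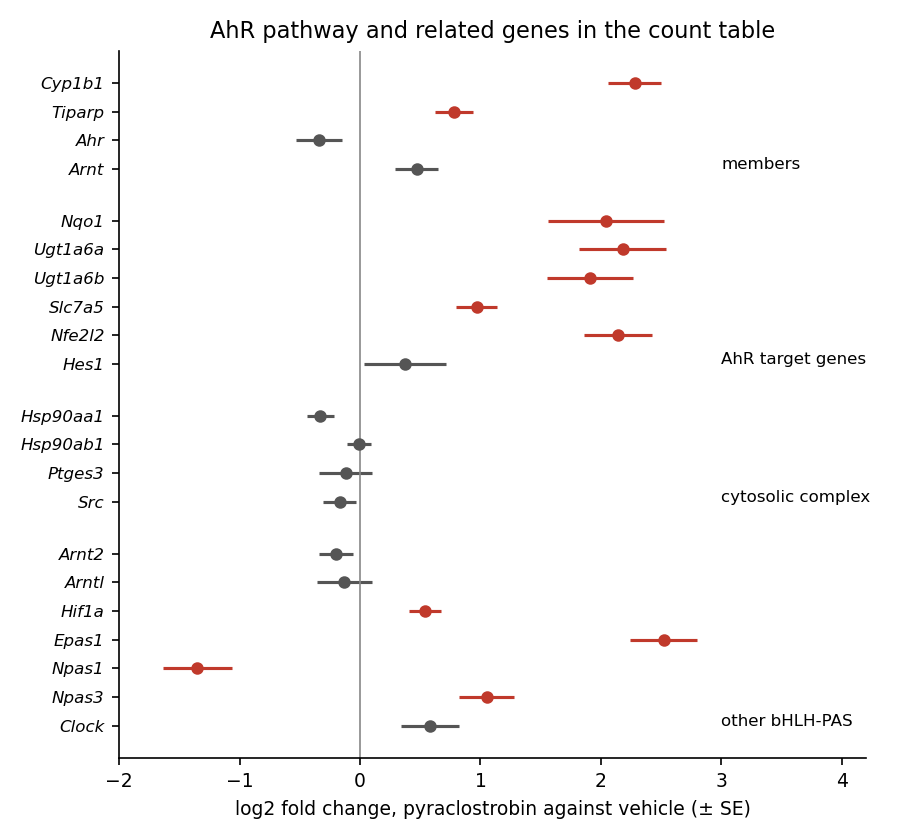
Log2 fold change with SE (edgeR) of pyraclostrobin against vehicle for the tested members, AhR target genes, 4 genes of the cytosolic complex and other bHLH-PAS genes, with red for an adjusted p under 0.01 and grey for the rest. Red points lie to the right for Cyp1b1, Tiparp, 5 target genes, Hif1a, Epas1 and Npas3 and to the left for Npas1.

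Markers of cell types moved with Cyp1b1. All 3 tested of 8 mural cell markers were higher, Acta2 by 3.99, Cspg4 by 2.08 and Pdgfrb by 1.94 on the log2 scale. The rest had few counts and were not tested, such as Rgs5 (means 1.06 in vehicle and 1.15 CPM) and Des (0.109 and 0 CPM). The summed level of the 8 rose from 37.1 to 88.8 CPM in vehicle to 629 to 866 CPM with pyraclostrobin. Acta2 made up most of it (means of 44 and 687 CPM). Of 4 tested fibroblast markers 3 were higher, among them Col1a1 by 2.86, while Dcn gave -0.48 (adjusted p = 0.47 by edgeR). The sum of the list was 22.7 to 59.4 CPM in vehicle and 129 to 280 CPM with pyraclostrobin. The endothelial markers summed to 4.72 to 9.68 CPM and 16.5 to 24.9 CPM, with Kdr the only one tested and called, and Cldn5 was at 0 in every library. All 4 tested microglial markers were higher (sums of 13 to 19.1 and 55.2 to 89.6 CPM). None of the 5 astrocyte markers passed at 0.01 (sums of 252 to 836 and 689 to 2756 CPM), but their log2 fold changes were 0.37 to 2.28 (median 1.96). Slc1a3 gave 1.55 (adjusted p = 0.0117), Aldh1l1 2.28 (adjusted p = 0.022) and Aqp4 1.96 (adjusted p = 0.0249, all by edgeR). Gfap gave 2.01 (adjusted p = 0.0896) and Aldoc 0.37 (adjusted p = 0.605, both by edgeR). Of 3 tested markers of the oligodendrocyte lineage 1 was higher (77.4 to 179 and 167 to 293 CPM). All 5 neuronal markers were lower, from sums of 5107 to 5503 CPM to 2473 to 3097 CPM. The part of these shifts in the values of Cyp1b1 and Tiparp was not tested. For fenamidone at 10 µM the paper counted cells stained for NeuN, Gfap and Iba1 and found no significant change. It adds that further non-neuronal cell types were not accounted for.

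In the screen, few chemicals placed either gene outside the vehicle range. The deposited values are log10 deviations from the median of each gene after removal of batch effects. They are given here on the log2 scale, as levels relative to that median or as differences from the median of the vehicle libraries. Cyp1b1 ranged from -0.77 to 1.13 over the 49 vehicle libraries (median 0.14, SD 0.31) and from -1.07 to 1.23 over the 297 chemicals (median 0.02). Tiparp ranged from -0.52 to 0.46 in vehicle (median 0.01, SD 0.22) and from -0.62 to 0.69 over chemicals. Ahr and Arnt varied about as little, with vehicle SDs of 0.24 and 0.32, and the sparsely expressed Ahrr and Cyp1a1 varied more, with SDs of 0.66 and 0.93.

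**Figure D3:**
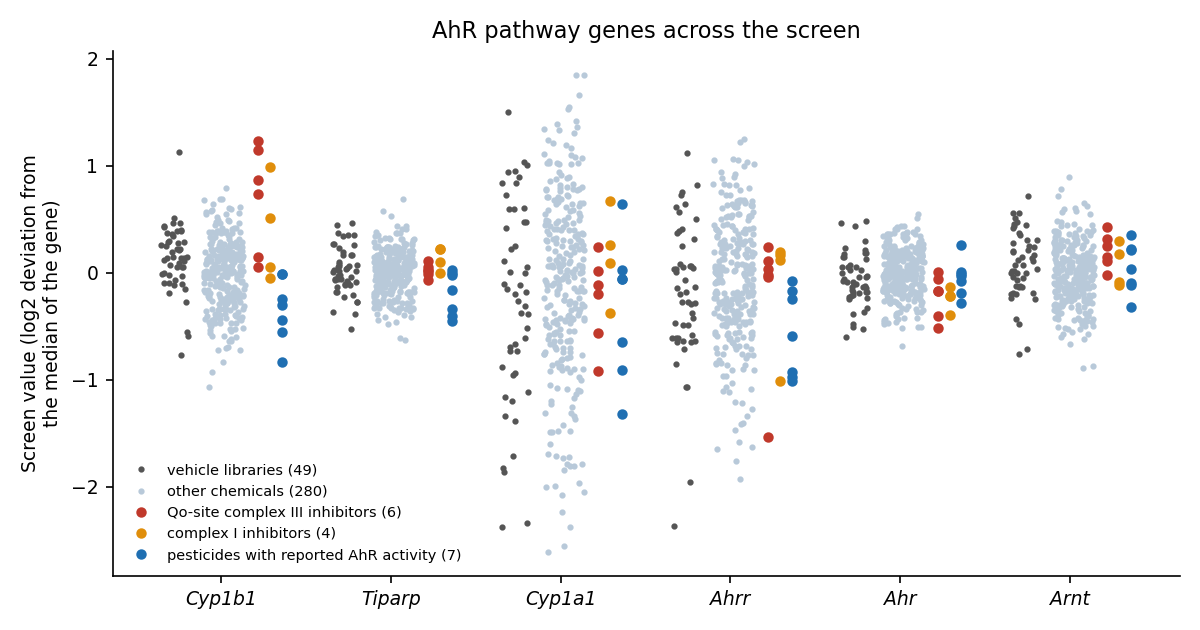
Screen values of the 6 genes (log2 deviation from the median of the gene) in 49 vehicle libraries and in 297 chemicals, each as the median of its libraries, with 3 groups of pesticides in colour. For Cyp1b1, 4 of 6 Qo-site inhibitors lie at the top, whereas for Tiparp the Qo-site inhibitors lie near 0. The pesticides with reported AhR activity reach for Cyp1b1 from the middle (carbaryl and diuron, -0.01) to the low end (propanil, -0.83).

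Only trifloxystrobin at 10 µM (level 1.23) and pyraclostrobin at 0.1 µM (level 1.14) exceeded all vehicle libraries for Cyp1b1, whose highest vehicle library was at 1.13 and next highest at 0.51. Chlorpyrifos-methyl (-1.07), diniconazole (-0.93), cycloate (-0.83) and propanil (-0.83) lay below all of them. For Tiparp, fenpropathrin (0.69), butachlor (0.57) and prometon (0.53), all at 10 µM, lay above, and etoxazole (-0.62) and methoxychlor (-0.61) lay below. Cyp1a1 was above all vehicle libraries with 5 chemicals, led by myclobutanil (1.85) and perfluorooctane sulfonic acid (1.85), Ahrr with difenoconazole (1.25) and metiram-zinc (1.22), Ahr with prodiamine (0.55) and folpet (0.51), and Arnt with trifloxysulfuron-sodium (0.90) and aldicarb (0.78).

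Over all genes and chemicals, 2.07% of values lay above all vehicle libraries and 2.69% below. The shares of the members were 0.673% to 1.68% above and 0 to 1.35% below. The counts above rest on the highest vehicle library of each gene. Above the second highest, the chemicals numbered 21 for Cyp1b1, 3 for Tiparp, 20 for Cyp1a1, 16 for Ahrr, 2 for Ahr and 9 for Arnt. Above the vehicle mean plus 3 SD they numbered 2 for Cyp1b1, 1 for Tiparp and 0 for the other genes. The share over all genes was not computed for these limits. No chemical exceeded all vehicle libraries for both Cyp1b1 and Tiparp, but with so few chemicals above for either gene a shared one was unlikely in any case. Single libraries were held for all of the chemicals named above, so none was tested on its own.

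The 10 highest chemicals for Cyp1b1, by difference from the vehicle median, were trifloxystrobin (1.09), pyraclostrobin (1.01), fenpyroximate (0.85), famoxadone (0.72), metribuzin (0.65), fenamidone (0.60), acetochlor (0.55), dicrotophos (0.55), fenthion (0.54) and fluazifop-butyl (0.50). Of these, trifloxystrobin, pyraclostrobin, famoxadone and fenamidone are fungicides that block mitochondrial complex III at its Qo site, and fenpyroximate is an acaricide that blocks complex I. The lowest were chlorpyrifos-methyl (-1.21), diniconazole (-1.07), cycloate (-0.97), propanil (-0.97) and EPTC (-0.86). Cyp1b1 was at or below the vehicle median for 193 of 297 chemicals.

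For Tiparp the highest were fenpropathrin (0.67), butachlor (0.56), prometon (0.51), butylate (0.42), chlorpropham (0.42), lindane (0.40), niclosamide (0.39), dipropyl 2,5-pyridinedicarboxylate (0.37), cyfluthrin (0.36) and dithiopyr (0.36). These belong to different classes, with the pyrethroids fenpropathrin and cyfluthrin and the thiocarbamate butylate among them. The lowest were etoxazole (-0.64), methoxychlor (-0.63), fosthiazate (-0.49), spirodiclofen (-0.48) and linuron (-0.47). The 10 highest chemicals of the 2 genes had none in common, and the 20 highest had 2, the triazinone herbicide metribuzin and the organophosphate phosalone. The 30 highest had 5 in common. Lists this short out of 297 chemicals share few by chance, so these counts cannot tell whether the genes respond to different chemicals.

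**Figure D4:**
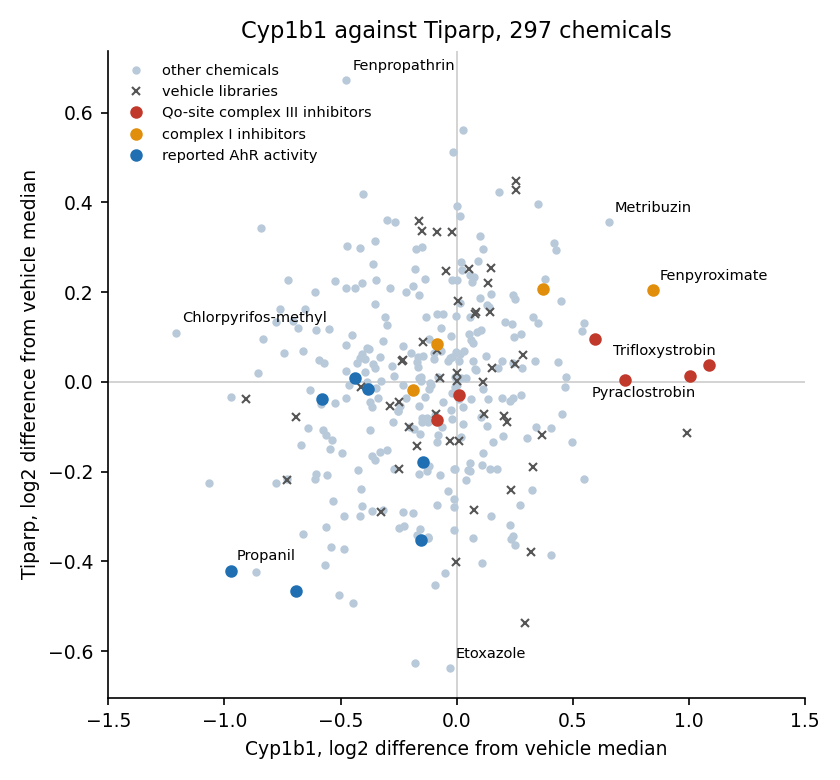
Log2 difference from the vehicle median of Tiparp against that of Cyp1b1 for 297 chemicals and 49 vehicle libraries. Trifloxystrobin and pyraclostrobin lie far to the right at a Tiparp difference near 0 (0.04 and 0.01), and fenpropathrin lies at the top with Cyp1b1 at -0.47.

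Spearman correlations between members over the 297 chemicals were weak, from -0.08 for Cyp1a1 with Ahr to 0.20 for Cyp1a1 with Ahrr. That of Cyp1b1 with Tiparp was 0.11. The chemicals share culture batches and a common normalization. The genes most like Cyp1b1 were Ccnd1 (0.51), which encodes cyclin D1, Cald1 (0.47), which encodes the actin-binding caldesmon, Ccng1 (0.46), Timp3 (0.46), an inhibitor of matrix proteases, and Wisp1 (0.45). Without the 10 inhibitors of complexes I and III these values were 0.42 to 0.48. Those most like Tiparp were Arl5b (0.33), Zbtb10 (0.32), Ccdc50 (0.32), B630005N14Rik (0.31) and Zc3h12c (0.30). Of the AhR target genes in the screen, 6 of 15, the highest correlation with Cyp1b1 was that of Nfe2l2 (0.34) and the highest with Tiparp that of Nqo1 (0.12). With Cyp1b1, 4 mural markers gave 0.09 to 0.32 (median 0.17, highest for Acta2), 4 fibroblast markers -0.03 to 0.35 (median 0.16, lowest for Dcn and highest for Col1a1) and 5 neuronal markers -0.21 to -0.13.

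The 6 Qo-site complex III inhibitors were set against the other 291 chemicals. Cyp1b1 was higher, with a mean of 0.70 ± 0.49 (SD, n = 6) against -0.01 ± 0.33 (SD, n = 291), a log2 difference of 0.71 (SE 0.14, adjusted p = 1.38e-05 by limma), and all 6 lay above the median of the others. Cyp1b1 was the only one of the 6 members called against the other chemicals, beside 7.00% of all genes called higher and 13.6% called lower. The group was formed by mode of action, with the ranking of these chemicals known from earlier results, so the difference is not independent of the ranks above. Left out in turn, the chemicals gave 0.60 to 0.83, with adjusted p of 0.00169 at most by limma. The median of all chemicals (0.02) lay below that of vehicle (0.14), so the difference from vehicle was smaller. Single libraries of the 6 inhibitors against the 49 vehicle libraries gave 0.53 (adjusted p = 0.000513 by limma). Of the 6 inhibitors, 5 lay above the vehicle median. Among chemicals at 10 µM only, a comparison added after the data were seen, 3 inhibitors against 254 others gave 0.96 (adjusted p = 1.75e-05 by limma). This limit kept trifloxystrobin, famoxadone and fenamidone, all among the 10 highest above. It left out azoxystrobin and fluoxastrobin, at 0.01 and -0.09 from the vehicle median, along with pyraclostrobin at 1.01. The larger value follows from which chemicals stayed and adds no support.

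Tiparp gave 0.02 (SE 0.086, adjusted p = 0.915 by limma) in the same comparison, Arnt 0.22 (adjusted p = 0.198), Ahr -0.21 (adjusted p = 0.0899), Cyp1a1 -0.14 (SE 0.34) and Ahrr -0.11 (SE 0.24). Of the target genes, Nfe2l2 (0.51, adjusted p = 2.97e-05) and Slc7a5 (0.29, adjusted p = 0.00252) were called higher, while Nqo1 gave 0.55 and Ugt1a6a 0.51 with larger errors (adjusted p = 0.336 and 0.209). Hsp90aa1 (-0.12) and Hsp90ab1 (-0.10) of the cytosolic complex were lower, and of the bHLH-PAS genes Epas1 was higher (0.71, adjusted p = 0.000442) and Npas1 lower (-0.48, adjusted p = 0.0491), all by limma. With these chemicals 3 of 4 mural markers were higher, Acta2 (1.54), Pdgfrb (0.64) and Cspg4 (0.49). So were 2 of 4 fibroblast markers, Col1a1 (0.96) and Col1a2 (1.01), while Col3a1 (0.38) and Dcn (-0.24) were not called. Of 5 astrocyte markers 2 were higher, and all 5 neuronal markers were lower (median -0.41). None of 3 microglial markers (median 0.33), 3 oligodendrocyte-lineage markers (median 0.14) and 1 endothelial marker (0.32) was called. The part of all these markers in the Cyp1b1 value was not tested.

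The inhibitors differed among themselves in dose and in Cyp1b1. At 10 µM, trifloxystrobin, a strobilurin, gave a difference from the vehicle median of 1.09, the 2 libraries of famoxadone, an oxazolidinedione, gave 0.71 and 0.74, and those of fenamidone, an imidazolinone, gave 0.84 and 0.35. At 0.1 µM, the strobilurin pyraclostrobin gave 1.01 in its 1 library, whereas the strobilurin azoxystrobin gave 0.07 and -0.05. Fluoxastrobin, also a strobilurin, gave -0.09 at 1 µM. An exact permutation test of 2 libraries against 2 cannot reach 0.05, so pairs of inhibitors were not tested. For Tiparp all 9 libraries lay between -0.22 and 0.22, and both of these values came from famoxadone.

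**Figure D5:**
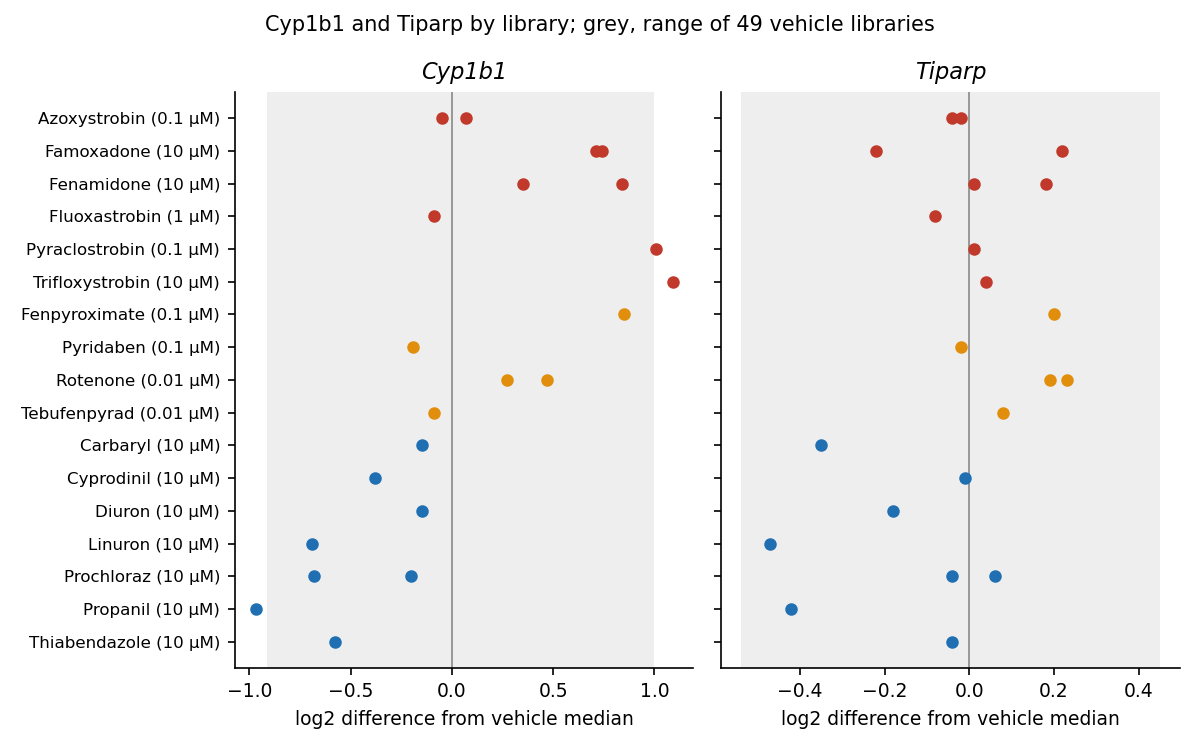
Log2 difference from the vehicle median of Cyp1b1 (left) and Tiparp (right) in each library of 6 Qo-site inhibitors (red), 4 complex I inhibitors (orange) and 7 pesticides with reported AhR activity (blue), with the range of 49 vehicle libraries in grey. Only trifloxystrobin and pyraclostrobin pass the upper end of the range for Cyp1b1, and propanil passes the lower end.

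The 4 complex I inhibitors gave a Cyp1b1 difference of 0.38 from the other chemicals (SE 0.17, adjusted p = 0.263 by limma), and no member was called, beside 4.55% of all genes. Fenpyroximate at 0.1 µM gave 0.85 from the vehicle median and rotenone at 0.01 µM gave 0.27 and 0.47 in 2 libraries, while pyridaben at 0.1 µM (-0.19) and tebufenpyrad at 0.01 µM (-0.09) lay below it. Without fenpyroximate the group gave 0.17. Of 4 mural markers Acta2 alone was called higher with these chemicals (1.23, with Rgs5 at -0.04), and 3 of 5 neuronal markers were lower. None of 4 fibroblast, 5 astrocyte, 3 microglial, 3 oligodendrocyte-lineage and 1 endothelial markers was called. The part of all these markers was not tested. For Tiparp the 5 libraries lay between -0.02 and 0.23, with a difference from the other chemicals of 0.14 (SE 0.10, adjusted p = 0.621 by limma).

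The 7 pesticides that are known to activate AhR in reporter or liver cell assays (carbaryl, cyprodinil, diuron, linuron, prochloraz, propanil and thiabendazole), all at 10 µM, showed no rise of Cyp1b1 or Tiparp as a group. Prochloraz had 2 libraries and each of the others had 1. Whether AhR could be activated in these cultures was not tested. For Cyp1b1 all 7 lay below the vehicle median, from -0.15 for carbaryl and diuron to -0.97 for propanil, while 193 of all 297 chemicals lay at or below it. The mean of the 7 pesticides was -0.34 ± 0.30 (SD, n = 7) against 0.01 ± 0.35 (SD, n = 290) for the other chemicals. The log2 difference was -0.35 (SE 0.13, p = 0.00776 before adjustment, adjusted p = 1 by limma). Tiparp gave -0.20 (SE 0.079, p = 0.0125 before adjustment) and Ahrr -0.49 (SE 0.22, p = 0.0277 before adjustment), each with an adjusted p of 1 by limma and with 0 of 7 chemicals above the median of the others. Cyp1a1 gave -0.22 (SE 0.32), with carbaryl at 0.83 and propanil at -1.14 from the vehicle median.

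No gene of the 13304 was called in this comparison (0%), while 541 had an unadjusted p under 0.05, and limma without a variance trend also called 0. Against the 49 vehicle libraries, the libraries of these 7 chemicals gave -0.47 for Cyp1b1 (adjusted p = 0.097) and -0.19 for Tiparp (adjusted p = 0.47 by limma).

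Topotecan, an inhibitor of topoisomerase 1 used at 0.3 µM, had 32 libraries and thus the best-determined values. The paper used it as a positive control because such inhibitors lower long genes, so it is no control for AhR. Between the 32 topotecan and 49 vehicle libraries 45.8% of all genes were called, but none of the 6 members. Cyp1b1 was at 0.10 ± 0.35 (SD, n = 32) against 0.13 ± 0.31 (SD, n = 49), a log2 difference of -0.03 (SE 0.073, adjusted p = 0.742 by limma). Tiparp differed by 0.10 (SE 0.049, adjusted p = 0.0825 by limma), Ahrr by 0.27 (SE 0.14), Cyp1a1 by 0.19 (SE 0.18), Ahr by 0.05 (SE 0.054) and Arnt by -0.10 (SE 0.063). Of 7 other bHLH-PAS genes, 4 were called lower and Hif1a (0.20) higher. The lower ones were Npas3 (-1.45, adjusted p = 5.11e-29), Arntl (-0.69, adjusted p = 3.65e-12), Arnt2 (-0.20, adjusted p = 6.98e-08) and Clock (-0.09, adjusted p = 0.0442), all by limma. Of 6 AhR target genes Nqo1 (0.50) was called higher, as were 2 of 5 genes of the cytosolic complex, among them Src (0.16).

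Another 14 chemicals had 2 or 4 libraries and were compared with vehicle by an exact permutation test, two-sided, for each of the 6 genes. Of the 84 comparisons 11 had a p under 0.05 and none passed after Benjamini-Hochberg adjustment (lowest adjusted p = 0.198). The smallest p that 2 libraries against 49 can give is 0.000784. The 2 lowest p values were those of Cyp1b1. With chlorothalonil at 1 µM its levels were -0.26 and -1.15 (difference -0.83 from the vehicle mean, exact permutation p = 0.00392, adjusted p = 0.198). With famoxadone they were 0.85 and 0.88 (difference 0.73, exact permutation p = 0.00471, adjusted p = 0.198). Next came Ahr, at -0.52 in both libraries of famoxadone (difference -0.46, exact permutation p = 0.0118, adjusted p = 0.297) and at 0.25 and 0.49 with the fungicide thiram (difference 0.43, exact permutation p = 0.0149, adjusted p = 0.297). Cyp1b1 levels with fenamidone were 0.98 and 0.49 (difference 0.60, exact permutation p = 0.0204, adjusted p = 0.297). Adjusted within Cyp1b1 alone, chlorothalonil and famoxadone passed. Chlorothalonil had Tiparp levels of 0.40 and 0.31, above the vehicle mean by 0.34 (exact permutation p = 0.0384, adjusted p = 0.323), the opposite direction to its Cyp1b1 values.

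Pyraclostrobin replicate 1, which both tables hold, differed between them. In counts its ratio to vehicle replicate 1 was 2.48 on the log2 scale for Cyp1b1 and 0.80 for Tiparp, whereas the screen gave differences from the vehicle median of 1.01 and 0.01. For Arnt the values were 0.80 and 0.35, and for Ahr -0.35 and -0.31. Across 12188 genes in both tables the values had a Spearman correlation of 0.68, and the slope of the screen value on the count ratio was 0.30, with SDs of 0.43 and 1.03. The 2 scales rest on different sets of vehicle libraries, a single one against the median of 49, and on different processing, and the part of each was not tested. The labels do not say whether that single vehicle library is among the 49.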

How the data were processed

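Polyadenylated RNA of mouse cortical cultures was sequenced, and labels gave the chemical and dose of each library. The authors cleaned reads with TagDust, used TopHat for alignment to mm9, dropped ribosomal reads and counted the rest over RefSeq exons by gene symbol, and the counts for pyraclostrobin were deposited without normalization. For the screen the authors deposited log10 values, made from RPKM of genes seen in nearly all samples by quantile normalization, median centring and a mixed model that takes out the batches of culture and of sequencing, so that they carry no levels, depths or batches, and no further filter on low values or pseudocount was applied. A further count table held 6 columns with identical names. It was not used, and the planned comparison of sulforaphane with fenamidone was not run.

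Counts were tested in edgeR 4.0.16 (quasi-likelihood, TMM, at least 10 counts in at least 4 libraries, adjusted p threshold 0.01), and the screen, multiplied to the log2 scale, in limma 3.58.1 (variance trend, threshold 0.05), both with Benjamini-Hochberg adjustment over all genes tested, in R 4.3.3. The trend was fitted on centred means and therefore carries little. Chemicals entered as the median of their libraries. For pyraclostrobin the paper describes sequencing in quadruplicate, 3 biological replicates and matched vehicle controls. The deposited table holds 4 libraries per group, and the labels do not say which share a culture. All 4 were counted as replicates, so p-values measure the spread between these samples, which may partly be technical. DESeq2 1.42.0, other size factors, thresholds, filters, a replicate block and the removal of each library or chemical were alternatives. The edgeR and limma steps were tested on simulated data. Named chemicals are the 10 highest and 5 lowest for Cyp1b1 and Tiparp. Named genes are the members, genes of the lists and the 5 nearest by Spearman correlation. Not every gene of the lists that passed is printed. Lists of related genes, markers and chemicals came from general knowledge. A related gene is not reported here by name. The members and lists were chosen with earlier results of these data known.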

Additional observations from a re-analysis of the deposited data

Results flagged for a closer look

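Of 18 groups of 4 libraries examined with Dixon's ratio (critical value 0.829, at which chance flags about 1 in 20 groups), 2 had a library far from the others, both among the insect repellent diethyltoluamide at 10 µM in the screen. Ahrr had levels of -0.63, -0.62, 0.69 and -0.49 on the log2 scale (ratio 0.89), with the third library high. Arnt had levels of -0.37, -0.42, -0.53 and 0.63 (ratio 0.864), with the fourth library high. These are different libraries, and none of the 8 libraries of the pyraclostrobin count table was set apart for any of the 6 genes.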

How the results depend on the processing

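For pyraclostrobin, Cyp1b1 kept its call under every alternative run, with log2 fold changes of 2.02 to 2.36, and Tiparp (0.61 to 0.84) lost its call only in the 3 removals of a library given above. The number of genes called, 2631, became 4301 at a threshold of 0.05 and 1682 to 4052 with single libraries left out (lowest without vehicle replicate 3, highest without vehicle replicate 1). Without both libraries of replicate 1, an alternative chosen after seeing the data, it was 4773, and Cyp1b1 gave 2.30 and Tiparp 0.84. Same-numbered pyraclostrobin and vehicle libraries had correlated deviations of 0.376, 0.102, -0.0287 and 0.161, so the main test did not pair them. With a replicate block 3135 genes were called and no member's call changed (Cyp1b1 2.28, Tiparp 0.78).

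In the screen, topotecan called 1788 genes among the 5121 variably expressed ones, where Tiparp, Ahr and Arnt are not included. The Qo-site comparison called 2736 genes, and 1751 to 3238 with chemicals left out, lowest without trifloxystrobin and 1772 without pyraclostrobin. The complex I comparison called 605, but 1324 for single libraries against vehicle, 281 at a threshold of 0.01 and 4 to 1019 with chemicals left out (4 without fenpyroximate, 295 without pyridaben, 1019 without tebufenpyrad). The pesticides with reported AhR activity called 13 for single libraries against vehicle. Chemicals above the second highest vehicle library numbered 21 for Cyp1b1, and 1 chemical exceeded the vehicle mean plus 3 SD for Tiparp. For repeated chemicals, 2 comparisons passed with adjustment within each gene.

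Values near 0 that no setting called changed sign. Single libraries against vehicle gave 0.03 for Cyp1a1 and 0.07 for Ahrr with Qo-site inhibitors, 0.12 for Ahrr and -0.04 for Arnt with complex I inhibitors, and 0.02 for Ahr and -0.04 for Arnt with the pesticides of reported AhR activity. Ahrr gave 0.14 for Qo-site inhibitors at 10 µM, 0.15 without fluoxastrobin, and 0.25 for complex I inhibitors without tebufenpyrad (ranges with chemicals left out -0.20 to 0.15 and -0.15 to 0.25). The causes were not tested. Alternatives for the sulforaphane comparison were not run. Depth limits Cyp1a1 and Ahrr, which had 1 to 20 counts in a library.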
